A study of Homo sapiens with 28 samples.

Results

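The genes described here write, read and erase DNA methylation: the methyltransferase genes DNMT1, DNMT3A and DNMT3B, the maintenance partners UHRF1 and HELLS, the genes TET2, TET3 and TDG, whose enzymes take part in active demethylation, and the reader genes MBD3 and ZBTB33. They were taken by name, and every probe set annotated to 1 of these symbols was used, which gave 10 of 11676 genes and 22 of 27306 probe sets. The RNA readings come from Affymetrix U133 Plus 2.0 chips, on which a probe set is several short probes read together as 1 signal. Cells were of the lines GDM1, MOLM13, NOMO1, SHI1, SKM1, SKNO1 and THP1, 7 in all, each grown out of an acute myeloid leukaemia (AML). In each line 1 group was exposed to 1 µM GSK3484862 (here GSK862, an inhibitor of DNMT1) for 96 hours, to day 4, and its control to 0.1% DMSO, the solvent, for as long. Each of the 14 groups had 2 arrays from biological duplicates, 28 in all.

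DNA methylation is copied after replication when UHRF1 binds the half-methylated DNA behind the fork and brings DNMT1 to it, with HELLS opening the chromatin. DNMT3A and DNMT3B set methylation on DNA that had none, TET enzymes oxidise methylcytosine, and the glycosylase TDG cuts out the oxidised bases for repair. DNMT3A and TET2 are among the genes most often mutated in AML. The arrays report RNA, so they say nothing of how much DNMT1 enzyme was blocked.

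Values are log2 signals, and a change is GSK862 minus DMSO on that scale with the standard error (SE) of the limma fit over all 28 arrays. A change was called at an adjusted p under 0.05 after Benjamini-Hochberg adjustment over all 27306 probe sets. Where 1 value stands for a gene, it is from the probe set whose mean over the 28 arrays was highest, named the brightest. Array medians ran from 8.33 to 8.51, and the spread (SD) of single arrays within a group from 0.183 to 0.301 over all probe sets, widest in SKM1 treated with GSK862. The myeloid marker genes PTPRC, SPI1, LYZ and CEBPA lay above the array median in all 7 lines, while MPO, ANPEP and KIT did so in 5 and FLT3 in 3. Of markers of other cells, CD79A lay above it in 0 lines and CD3D, a T-cell gene, in 2. COL1A1, a fibroblast gene, did so in all 7 lines, at 9.15 to 9.58, and PECAM1 in 6. In bulk RNA a smaller share of cells that express a gene and less of its RNA per cell cannot be told apart.

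The first question was how the inhibitor moved these genes in each line. In GDM1, 7 of the 10 genes were called, DNMT3A up and DNMT1, DNMT3B, UHRF1, HELLS, TDG and MBD3 down, where 31.3% of all genes were called (12.3% up and 19% down). In MOLM13 it was 5, with TET2 up and DNMT3A, TDG, MBD3 and ZBTB33 down (26% of all genes, 12.4% up and 13.6% down). SKM1 had 3 calls, DNMT3A and DNMT3B up and TET3 down (25.1%, 12.7% up and 12.3% down). THP1 and SKNO1 had 1 each, DNMT3A down in both, against 11% of all genes called in THP1 (6.34% down) and 4.59% in SKNO1 (2.23% down). By limma 0 members were called in NOMO1 (8.79%) and 0 in SHI1 (2.68%). At an unadjusted p under 0.05 the brightest probe sets gave 3 in NOMO1 and 0 in SHI1. The share of all genes at that cut was not counted, so these counts cannot be set against it. Each of the 10 genes was called in at least 1 line, as were 59.5% of all genes, and 17 of the 22 probe sets were, beside 50.7% of all probe sets.

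**Figure D1:**
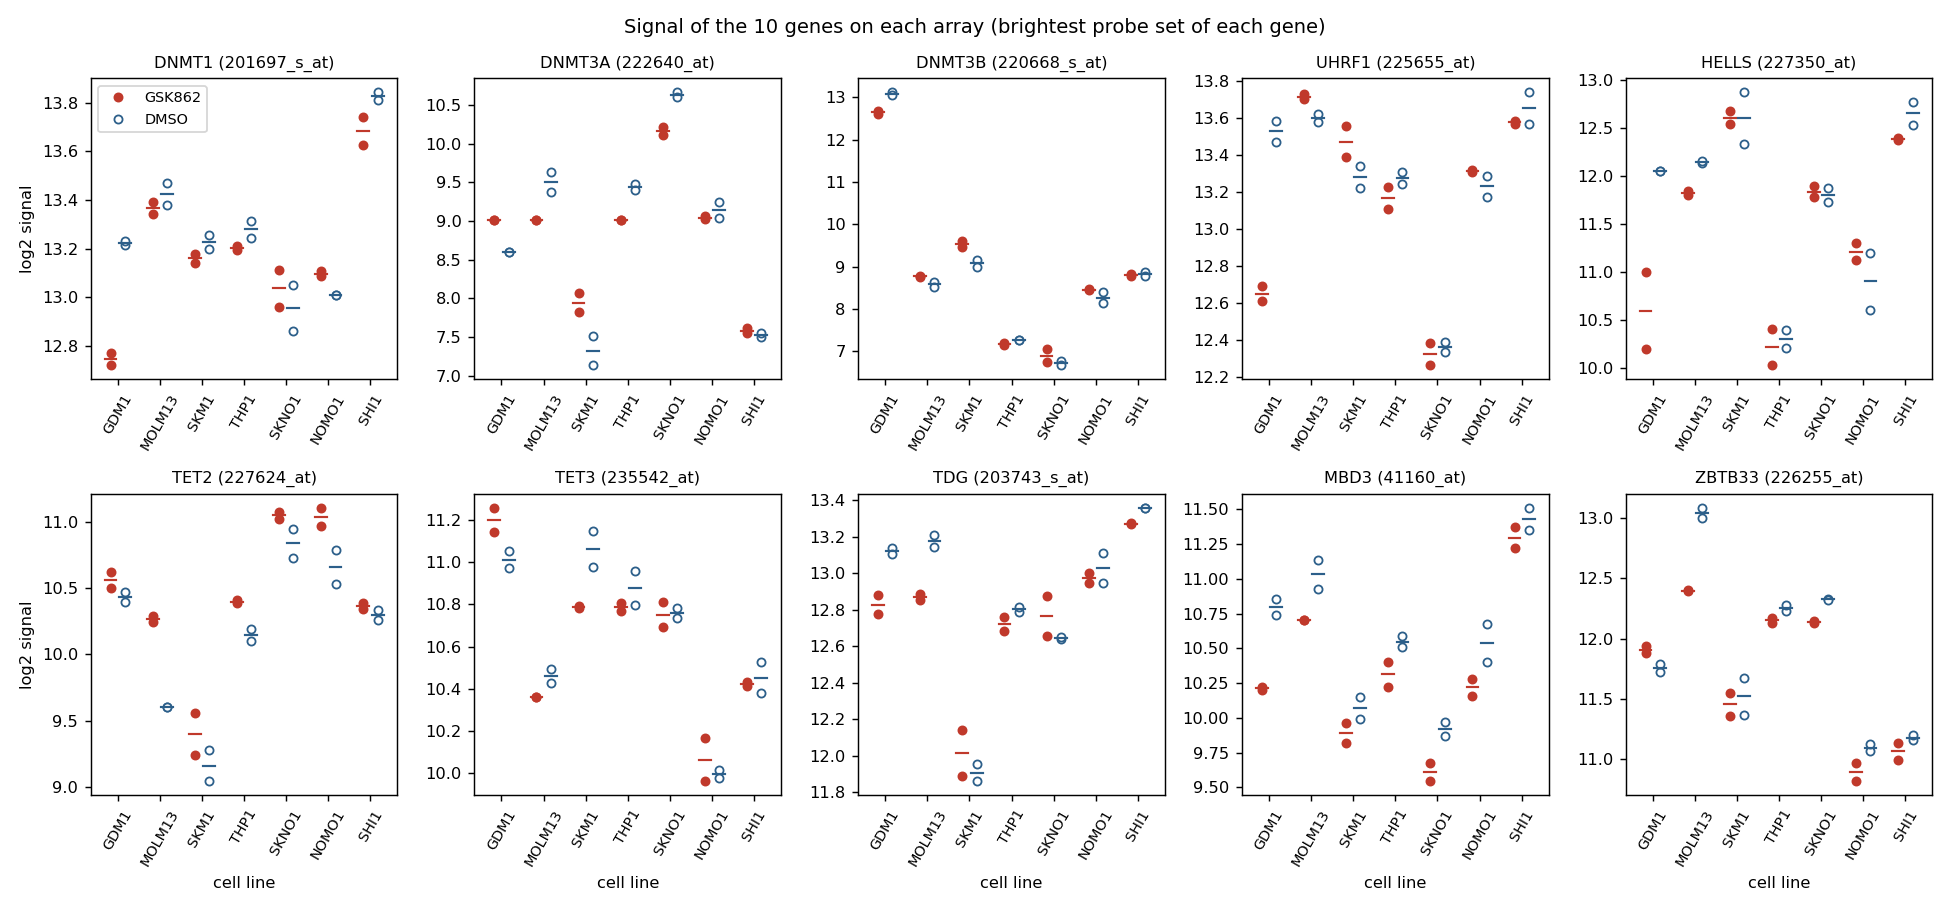
Log2 signal of the brightest probe set of each of the 10 genes (vertical axis, its own range in each panel) in 7 cell lines, with GSK862 arrays as filled red points left of the DMSO arrays, open blue points, and short bars at the group means of 2 arrays. GDM1 treated with GSK862 lay lowest of all groups for DNMT1, and DNMT3B stood 4.01 higher in GDM1 under DMSO than in the next line.

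Of the maintenance genes, DNMT1, UHRF1 and HELLS were called in 1 line, GDM1, and there together. DNMT1, the maintenance methyltransferase and the inhibitor's target, had 12.77 and 12.72 in GSK862-treated GDM1, against 13.21 and 13.23 in DMSO. The treated arrays lay below both controls, as they did for 35.5% of all genes in GDM1. The change was -0.48 ± 0.07 (adjusted p = 0.000148), a fold of 0.719. In the other 6 lines DNMT1 changed by between -0.14 in SHI1 and 0.09 in NOMO1, with no call.

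UHRF1 had 12.69 and 12.61 in GDM1 with GSK862 and 13.59 and 13.47 with DMSO. These groups did not overlap, as was so for 63.7% of all genes in GDM1. The UHRF1 change of -0.88 ± 0.08 (adjusted p = 9.55e-07) was a fold of 0.543. Elsewhere the change lay between -0.11 in THP1 and 0.19 in SKM1, not called.

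HELLS, a chromatin remodelling ATPase, has 5 probe sets here, and 4 of them were called down in GDM1. On the brightest, 227350_at, treated GDM1 had 10.99 and 10.19, against 12.04 and 12.05 in DMSO. This was the largest change among the members in any line, -1.45 ± 0.23 (adjusted p = 0.00014, fold 0.365), although the 2 treated arrays were themselves 0.80 apart. Probe set 223556_at had 9.94 and 9.61 with GSK862 and 11.05 and 11.15 with DMSO (-1.33 ± 0.13), 220085_at changed by -1.02 and 227349_at by -1.23. The dimmest, 234040_at, changed by -0.66 ± 0.32, not called (adjusted p = 0.15).

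The fall in GDM1 was tested against the mean of the other 6 lines. The difference was -0.45 for DNMT1 (adjusted p = 0.00091), -0.91 for UHRF1 (adjusted p = 3.0e-06) and -1.40 for HELLS (adjusted p = 0.000694), and 20.2% of all genes were called in this test. On the average of the 7 lines all 3 genes were called down, but on their brightest probe sets each of these calls rested on GDM1. Without it DNMT1 stood at -0.03 (adjusted p = 0.512), UHRF1 at 0.03 (adjusted p = 0.568) and HELLS at -0.05 (adjusted p = 0.627). The other 3 called HELLS probe sets then lay lower, 223556_at at -0.12, 220085_at at -0.14 and 227349_at at -0.22, none of them called (adjusted p = 0.081, 0.135 and 0.0572). The average call of DNMT1 was also lost after quantile normalization (-0.08), and that of the brightest HELLS probe set without MOLM13 (-0.24, adjusted p = 0.0706), where the other 3 kept theirs (-0.26 to -0.36).

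S-phase genes moved in GDM1 too. Of 40 measured genes of DNA replication 37 were called down in GDM1 and 1 up, POLE, with a median change of -0.88 against -0.01 over all genes, of which 19% were called down there. MOLM13 had a median of -0.29 with 20 called down, where 13.6% of all genes were, SKM1 -0.23 with 15 (12.3%) and THP1 -0.26 with 13 (6.34%). SKNO1 had -0.19 with 4 called down (2.23%), NOMO1 -0.09 with 0 (5.65%) and SHI1 -0.06 with 0 (0.668%). When single arrays were left out the counts were 10 to 20 in MOLM13, 9 to 16 in SKM1, 3 to 13 in THP1 and 0 to 5 in SKNO1. On average 36 of 40 were called down, 30 without GDM1, and 27% of all genes were on the average of 7 lines. Over the 7 lines the changes of HELLS, UHRF1, MBD3 and DNMT1 correlated with the S-phase median at r = 0.921, 0.882, 0.868 and 0.863, on the same arrays. Without GDM1 the 6 remaining lines gave 0.336, -0.239, 0.301 and 0.11, so the relation rests on that line. Its part in the change of these genes was not tested.

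**Figure D2:**
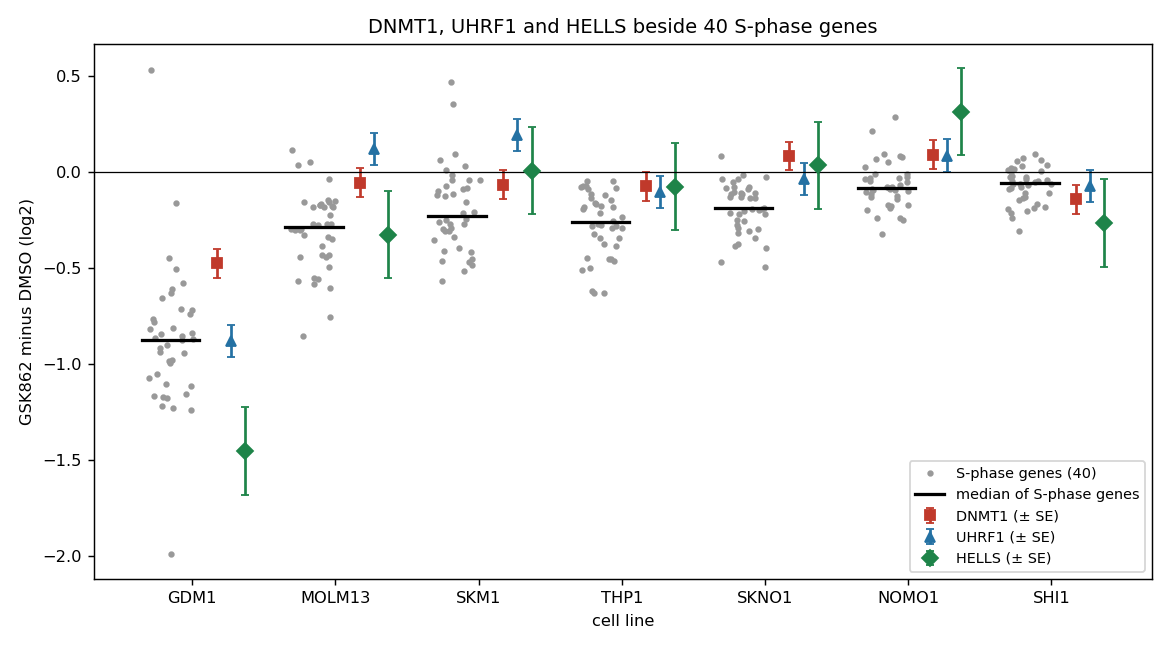
Change in log2 signal (GSK862 minus DMSO, vertical axis) of 40 S-phase genes (grey points, bar at their median) and of DNMT1, UHRF1 and HELLS (coloured symbols with SE) in 7 lines. In GDM1 UHRF1 (-0.88) lay at the S-phase median, DNMT1 (-0.48) above it and HELLS (-1.45) below it, while in the other 6 lines none of the 3 was called.

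The RefSeq promoter windows (GRCh38.p14, 250 bases before to 50 after the start) are shown for DNMT1, UHRF1 and HELLS, the maintenance genes. DNMT3B, TDG and MBD3 were called down in GDM1 as well. Capitals mark matches, on either strand, to 4 spellings of an E2F-type site, TTTCCCGC, TTTCGCGC, TTTGCCGC and TTTGGCGC, which do not overlap one another here. E2F factors are known regulators of replication genes, and the spellings were chosen with the results known. The windows are chr19:10194904-10195203 on the minus strand for DNMT1, chr19:4909251-4909550 on the plus strand for UHRF1 and chr10:94545538-94545837 on the plus strand for HELLS.
DNMT1: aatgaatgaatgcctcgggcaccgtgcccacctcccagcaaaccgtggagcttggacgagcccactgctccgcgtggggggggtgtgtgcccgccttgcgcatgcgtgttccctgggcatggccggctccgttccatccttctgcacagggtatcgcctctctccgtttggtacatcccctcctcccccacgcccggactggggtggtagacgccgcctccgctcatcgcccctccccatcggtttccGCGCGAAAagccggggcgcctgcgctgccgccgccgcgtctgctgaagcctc
UHRF1: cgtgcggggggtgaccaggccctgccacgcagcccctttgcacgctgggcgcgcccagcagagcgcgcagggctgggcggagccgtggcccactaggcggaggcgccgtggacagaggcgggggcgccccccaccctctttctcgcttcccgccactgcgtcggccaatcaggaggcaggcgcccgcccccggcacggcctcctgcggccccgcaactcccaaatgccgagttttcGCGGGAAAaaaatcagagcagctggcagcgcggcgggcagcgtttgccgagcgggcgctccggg
HELLS: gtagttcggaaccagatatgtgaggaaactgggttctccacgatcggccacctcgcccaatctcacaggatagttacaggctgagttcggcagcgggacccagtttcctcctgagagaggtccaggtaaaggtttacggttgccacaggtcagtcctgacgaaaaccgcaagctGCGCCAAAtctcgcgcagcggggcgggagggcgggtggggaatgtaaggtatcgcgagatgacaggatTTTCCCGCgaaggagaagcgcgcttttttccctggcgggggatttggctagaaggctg
A match began 2 bases before the start site of the window in DNMT1 and 14 before it in UHRF1. HELLS had 2, at 76 and 8 bases before it. Counted over genes, 3 of the 10 members held a match in at least 1 window, these 3, and 3.99% of 27305 genes with a window did. DNMT3B, TDG and MBD3, which also fell in GDM1, held none in their windows. The only DNMT3B window, chr20:32779602-32779901, lies inside the gene, which starts at 32762385, so the sequence at that start was not searched. All UHRF1 windows also lie inside the gene, which starts at 4903080, before the shown window at 4909251. So do those of TET3, which starts at 73983631, its first window at 73984660. The sequence at those starts was not searched either. UHRF1 had a further match in its second window. Of the 19 windows of the members 4 held a match (21.1%), against 3.31% of all 35116 windows. The members' windows were also richer in bases G and C, with a median of 74% against 58.7%, and in CpG pairs, with a median of 30 against 14. A match is a run of letters, and no binding was measured.

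The de novo methyltransferase gene DNMT3A moved in opposite directions in different lines. In SKM1 it had 8.07 and 7.82 with GSK862, against 7.13 and 7.51 with DMSO, a rise of 0.62 ± 0.11 (adjusted p = 0.000985). In GDM1 it had 9.01 on both treated arrays and 8.60 on both controls, a rise of 0.41 ± 0.11 (adjusted p = 0.0138). Treated arrays lay above the controls in these 2 lines and below them in the next 3. Of all genes 25.5% lay above in SKM1 and 28.2% in GDM1. Below lay 34.8% in MOLM13, 34.6% in THP1 and 29.1% in SKNO1.

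MOLM13 had 9.01 and 9.01 with GSK862, against 9.63 and 9.38 with DMSO (-0.50, adjusted p = 0.00475). THP1 had 9.01 and 9.01, against 9.48 and 9.40 (-0.43, adjusted p = 0.0247). SKNO1, the line with the most DNMT3A signal, had 10.12 and 10.22 with GSK862, against 10.66 and 10.60 with DMSO (-0.47, adjusted p = 0.0304). NOMO1 (-0.10) and SHI1 (0.06) had overlapping arrays and no call. The average was -0.06 ± 0.04 (adjusted p = 0.292), but -0.14 without GDM1 (adjusted p = 0.0437) and -0.17 without SKM1 (adjusted p = 0.00111), and the test of differences between the line changes gave an adjusted p of 0.000205. It passed without GDM1 as well (adjusted p = 0.0023).

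Group means of DNMT3A spanned 2.59 under GSK862, from 7.58 to 10.17, against 3.31 under DMSO, from 7.32 to 10.63. The 3 lines with the highest DMSO level were those in which it fell, and the change contains that level. The same value to the last digit, 9.01 when rounded, was shared by 5 arrays, all of them treated: both of GDM1, both of MOLM13 and 1 of THP1. Of all probe sets 18.7% had 5 or more arrays at 1 identical value, and how such values arose is not given in the sources used here. The changes in those 3 lines end at that value, and the spread between their treated duplicates was at or near 0. In the 4 lines without it the differences between line changes gave an adjusted p of 0.035. The calls in GDM1, THP1 and SKNO1 were lost whenever 1 of that line's 4 arrays was left out, and that in MOLM13 without DMSO replicate 1. The second probe set, 244428_at, was dim, at 2.86 to 4.70, was called in no line, and had the opposite sign in GDM1 (-0.51 ± 0.30). It had the same sign as the brightest in MOLM13 (-0.86, adjusted p = 0.0536) and in SKM1 (0.82, adjusted p = 0.0675).

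DNMT3B, the other de novo enzyme gene, separated the lines most. Under DMSO it averaged 13.09 ± 0.05 in GDM1 (SD, n = 2, as for all levels below) and 9.07 ± 0.12 in SKM1, the next line, a difference of 4.01 (adjusted p = 1.24e-15), and 6.71 ± 0.07 in SKNO1, the lowest. The whole range was 83-fold. SHI1 lay 0.25 below SKM1 and MOLM13 0.24 below SHI1, of which the first passed (adjusted p = 0.0494) and the second did not (adjusted p = 0.0604).

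The inhibitor moved DNMT3B down in the line that had most of it and up in the next, and each change contains that DMSO level. GDM1 had 12.61 and 12.68 with GSK862, against 13.12 and 13.05 with DMSO (-0.44 ± 0.10, adjusted p = 0.00419). SKM1 had 9.46 and 9.60, against 9.16 and 8.99 (0.46 ± 0.10, adjusted p = 0.00484). Both pairs were apart, as was so for 63.7% of all genes in GDM1 and 52.7% in SKM1. The call in SKM1 was lost without DMSO replicate 2. The other 5 lines lay between -0.10 and 0.19 with no call. The line changes differed (adjusted p = 0.00507), but not without GDM1 (adjusted p = 0.149). Without GDM1 the average, which was 0.06 over 7 lines (adjusted p = 0.198), was 0.15 (adjusted p = 0.0166).

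TET2 was the only member called up on average. Its brightest probe set, 227624_at, had 10.29 and 10.24 in MOLM13 with GSK862, against 9.60 and 9.61 with DMSO. This rise of 0.66 ± 0.11 (adjusted p = 0.000485), a fold of 1.58, was its 1 call in a line. Next came NOMO1 with 11.10 and 10.97, against 10.79 and 10.53, a change of 0.38 that did not pass (adjusted p = 0.0533). It passed under 5 alternatives that kept all arrays, such as median centring.

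All 7 line changes of TET2 were above 0, down to 0.07 in SHI1, which held for 6.21% of all genes. The average of 0.28 ± 0.04 (adjusted p = 6.76e-05) was 0.21 without MOLM13 (adjusted p = 0.00376). The other 2 TET2 probe sets lay at 2.84 to 4.65, far below the array medians, and neither was called. One of them, 235461_at, had 17 of 28 arrays at 1 identical value. The mean of the 3 probe sets did not pass (0.07). Among 14 monocyte and granulocyte maturation genes 12 were called up on average and 0 down, where 22.2% of all genes were called up, with S100A8 at 2.05 and CYBB, a subunit of the phagocyte oxidase, at 1.73. In MOLM13, where TET2 moved most, 8 of them were called up (12.4% of all genes), as in SKM1 (12.7%), where TET2 changed by 0.24 (adjusted p = 0.164). Their part in the TET2 change was not tested.

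TET3 changed little. In SKM1 it had 10.78 and 10.79 with GSK862, against 11.15 and 10.98 with DMSO (-0.28 ± 0.09, adjusted p = 0.0338). This call was lost when any of 3 of the 4 SKM1 arrays was left out. In the other lines the changes ran from -0.10 to 0.19, and the second TET3 probe set was called in no line.

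For TDG, the glycosylase gene, the 2 probe sets disagreed on which lines moved. On 203743_s_at GDM1 had 12.88 and 12.77 with GSK862, against 13.14 and 13.11 with DMSO (-0.30 ± 0.09, adjusted p = 0.0205), and MOLM13 had 12.85 and 12.88, against 13.21 and 13.15 (-0.31 ± 0.09, adjusted p = 0.02). On 203742_s_at the call was in SKM1, with 8.86 and 8.87 against 9.57 and 9.32 (-0.58 ± 0.17, adjusted p = 0.0212), where the first probe set changed by 0.11. The line changes of the 2 probe sets correlated at r = -0.255 over the 7 lines. On average the first was -0.08 ± 0.03 (adjusted p = 0.0523, but 0.00831 without SKM1 and 0.0132 without SKNO1) and the second -0.19 ± 0.06 (adjusted p = 0.0214), a call lost without MOLM13 or SKM1. All 3 line calls were lost when any of 3 of the line's own arrays was left out. Both DNMT3A and TDG have an annotated pseudogene (DNMT3AP1, TDGP1), and whether their probe sets also read it was not tested.

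MBD3, a subunit of the NuRD complex that is related to methyl-CpG-binding proteins, was lower in all 7 lines on 2 of its 3 probe sets. On 41160_at GDM1 had 10.20 and 10.22 with GSK862, against 10.85 and 10.74 with DMSO (-0.58 ± 0.11, adjusted p = 0.000754). MOLM13 had 10.70 and 10.71, against 11.13 and 10.93 (-0.33 ± 0.11, adjusted p = 0.0433), a call lost in 9 of 28 fits that each left out 1 array. In 6 of the 7 lines both treated arrays lay below both controls, the exception being SHI1, and 7.89% of all genes lay so in at least 6 lines.

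SKNO1 had 9.55 and 9.68 with GSK862, against 9.97 and 9.87 with DMSO. NOMO1 had 10.16 and 10.28, against 10.40 and 10.68, and THP1 10.22 and 10.40, against 10.51 and 10.59. None of these 3 was called, nor were SKM1 (-0.18) and SHI1 (-0.13). Of all genes 10.2% were lower in all 7 lines.

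Over the 7 lines MBD3 fell by 0.30 ± 0.04 (adjusted p = 2.43e-05) on 41160_at and by 0.34 ± 0.05 on 202463_s_at, which was called in GDM1 (-0.57) and THP1 (-0.51). The THP1 call was lost without any 1 of its 4 arrays, and that in GDM1 without DMSO replicate 1. The third, 222183_x_at, of a class that can read related transcripts, was dim at 4.46 to 6.14. It was called in GDM1 (-0.80), a call lost without either of 2 GDM1 arrays, and was higher in SKNO1 (0.29) and NOMO1 (0.06), not called. Differences between the line changes of 41160_at were not called (adjusted p = 0.308). MBD3 was the 1 member that passed when the 7 lines were taken as the units of the test (adjusted p = 0.0483), where 3.19% of all probe sets did, and 202463_s_at did not (adjusted p = 0.0516).

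ZBTB33, which encodes the methyl-DNA-binding zinc finger protein Kaiso, fell in MOLM13. On 226255_at it had 12.39 and 12.40 there with GSK862, against 13.09 and 13.01 with DMSO (-0.65 ± 0.09, adjusted p = 9.57e-05, fold 0.638). The dim probe set 214631_at had 5.92 and 5.77, against 6.99 and 6.51 (-0.90 ± 0.17, adjusted p = 0.00118). Both DMSO levels were the highest of any line, and each change contains that level. On both probe sets the groups were apart, as was so for 64.8% of all genes in MOLM13. MOLM13 differed from the mean of the other 6 lines by -0.56 (adjusted p = 0.00166), where 9.64% of all genes did. GDM1 went the other way at 0.15, not called, and the remaining lines lay between -0.20 and -0.07. The average call (-0.17 ± 0.04) was lost without MOLM13 (-0.09, adjusted p = 0.105).

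**Figure D3:**
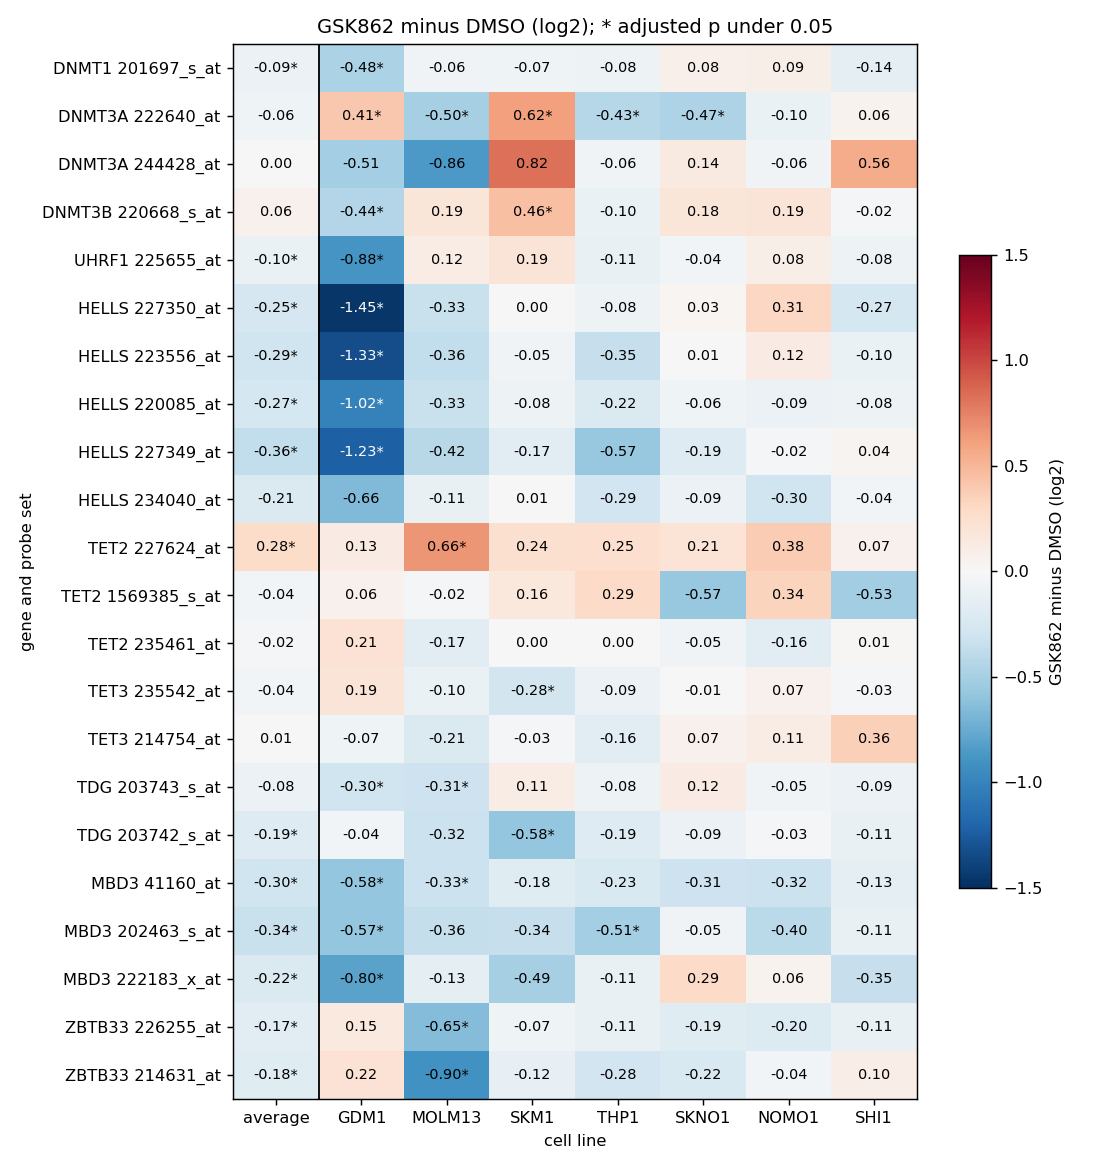
Change in log2 signal (GSK862 minus DMSO, as colour and as a number) of the 22 probe sets (rows) on average and in each of 7 lines (columns), with a star where the adjusted p was under 0.05. The HELLS probe sets agree in GDM1, DNMT3A 222640_at has stars of both colours, and the TDG probe sets have theirs in different lines.

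Seen over the 7 lines together, 6 of 10 genes were called on average, TET2 up and DNMT1, UHRF1, HELLS, MBD3 and ZBTB33 down, while 49.2% of all genes were called (22.2% up and 27% down). By probe set it was 1 up and 12 down of 22, where 42.6% of all probe sets were called (18.4% up and 24.2% down). The median average change of the 10 genes was -0.09, beside -0.02 over all genes. Differences between lines were called for 6 of 10 genes (DNMT1, DNMT3A, DNMT3B, UHRF1, HELLS and ZBTB33), against 32% of all genes. When GDM1 was left out they were called for 1, DNMT3A, and the share of all genes in that fit was not counted. By probe set differences were called for 10 of 22 over the 7 lines, against 25.2% of all probe sets.

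**Figure D4:**
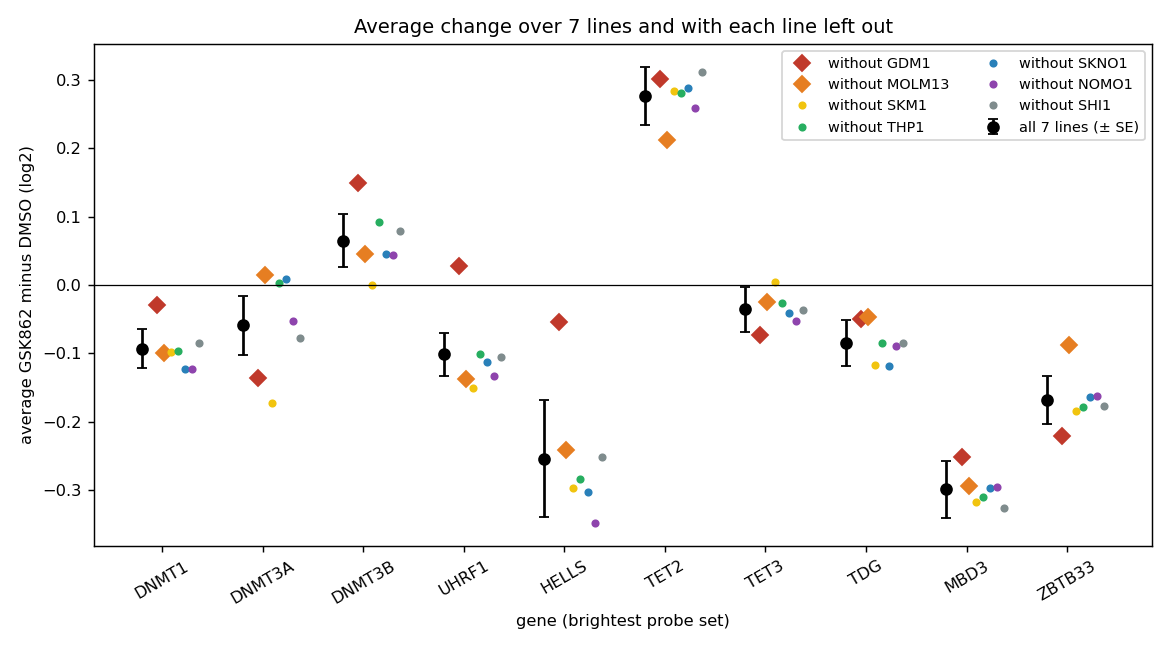
Average change in log2 signal (GSK862 minus DMSO, vertical axis) of each gene's brightest probe set over all 7 lines (black, with SE) and with 1 line left out (coloured). DNMT1, UHRF1 and HELLS move to near 0 without GDM1 and ZBTB33 moves to -0.09 without MOLM13. MBD3 and TET2 kept their call on average under each omission.

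The lines also differed before treatment: all 10 genes differed in DMSO level on their brightest probe sets, which the levels given here are from, as did 96.9% of all genes. DNMT1 was highest in SHI1 (13.83 ± 0.02), 0.40 above MOLM13 (adjusted p = 0.000201), and lowest in SKNO1 (12.95 ± 0.14), where the difference from NOMO1 was not called (adjusted p = 0.547). Its whole range was 1.83-fold. UHRF1 had 6 lines between 13.23 and 13.65, with SKNO1 0.87 below the lowest of them at 12.36 ± 0.04 (adjusted p = 7.19e-08). HELLS ran from 12.65 ± 0.17 in SHI1 to 10.29 ± 0.13 in THP1, and no difference between neighbours was called among the 5 lines from SHI1 to SKNO1. The ends of that stretch did differ, SKNO1 from SHI1 by -0.85 (adjusted p = 0.00359). On 223556_at neighbours at its top were called apart too, SHI1 0.41 above GDM1 (adjusted p = 0.0132).

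DNMT3A was highest in SKNO1 (10.63 ± 0.04), 1.13 above MOLM13 (adjusted p = 1.48e-07), and lowest in SKM1 (7.32 ± 0.27), where the difference from SHI1 (7.53 ± 0.04) was not called (adjusted p = 0.146). TET2 ran in the order SKNO1 (10.84 ± 0.16), NOMO1, GDM1, SHI1 and THP1 (10.15 ± 0.06), with no called difference between neighbours. THP1 did differ from SKNO1, by -0.69 (adjusted p = 3.89e-05). MOLM13 (9.60) and SKM1 (9.16 ± 0.16) followed, each called below the line before it. TET3 was lowest in NOMO1 (10.00 ± 0.03), 0.46 below SHI1 (adjusted p = 0.000245), while on its second probe set SHI1 was lowest. TDG was lowest in SKM1 (11.91 ± 0.07), 0.74 below SKNO1 (adjusted p = 1.35e-06). On the other TDG probe set, 203742_s_at, GDM1 was lowest, the range was 0.40 and the lines did not pass the test of differences (adjusted p = 0.12). MBD3 was highest in SHI1 (11.43 ± 0.11) and lowest in SKNO1 (9.92 ± 0.07). ZBTB33 was 0.72 higher in MOLM13 (13.05 ± 0.06) than in SKNO1 (adjusted p = 3.01e-06) and lowest in NOMO1 (11.09 ± 0.04), and on the dim probe set it was lowest in SHI1.

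Of other proteins of the pathway, 21 of 24 listed partners and readers were measured, and 4 rose and 7 fell on average, counts near the share of all genes called (22.2% up and 27% down). CDCA7, the partner that recruits HELLS, fell by 0.52 ± 0.04 (adjusted p = 1.46e-08), was lower in all 7 lines and was called in GDM1, MOLM13, SKM1 and THP1, most in GDM1 (-1.35). Its relative CDCA7L fell by 0.35, the H3K9 methyltransferase gene EHMT2 and the sliding clamp gene PCNA by 0.16 each. The Kaiso relatives ZBTB38 and ZBTB4 rose by 0.47 ± 0.08 and 0.30 ± 0.06, the histone demethylase gene KDM1B by 0.25 and the mismatch glycosylase gene MBD4 by 0.09.

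Among 19 of 23 genes of demethylation and base excision repair 1 rose and 11 fell, with a median of -0.14 beside -0.02 over all genes, of which 27% fell. The glycosylase genes NEIL2, UNG and NTHL1 fell by 0.61 ± 0.05, 0.45 ± 0.04 and 0.43 ± 0.05, and the cytidine deaminase gene APOBEC3G by 0.38 ± 0.09. GADD45A, a stress response gene, rose by 0.24, a call lost without MOLM13. Of the 13 further NuRD subunits 4 fell, close to that share, and 0 rose: MTA3 (-0.25), MTA1 (-0.16), HDAC2 (-0.13) and RBBP7 (-0.11). A list of 20 genes covered the methionine cycle and pathways linked to S-adenosylmethionine, the methyl donor. Of its 15 measured genes 12 fell (27% of all genes) and 0 rose. The largest falls were in SRM, MTHFD1, SHMT2 and SLC19A1 (0.40, 0.26, 0.25 and 0.19). With the lines as units 0 of the 15 passed and 2 of the 19 repair genes did, as did 3.19% of all probe sets. Among 10 measured reference genes, of 12, HPRT1 (-0.29), TBP (-0.27) and SDHA (-0.14) fell, again near 27%, the first by close to the average fall of MBD3.

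As a description of likeness, the genes whose 14 group means followed a member's most closely were sought. KHSRP (r = 0.942) and CHAF1A (r = 0.912), a chromatin assembly gene of the S-phase list, followed DNMT1, while SMC3, a cohesin gene (r = 0.961), and the tubulin gene TUBB (r = 0.935) followed HELLS. UHRF1 was followed by CYP20A1 (r = 0.943) and CCNF (r = 0.936), and DNMT3B by TRIM8 (r = 0.977) and USP20 (r = 0.958). For DNMT3A they were ZNF3 (r = 0.95) and CD320 (r = 0.931), for TET2 BCAP31 (r = 0.927) and GSTP1 (r = 0.908), and for TET3 TBCEL (r = 0.954) and PSIP1 (r = 0.947). KDM8 (r = 0.942) and TRAFD1 (r = 0.939) followed TDG, PIGH (r = 0.944) and YJU2 (r = 0.928) MBD3, and DLD (r = 0.942) and SAMD13 (r = 0.921) ZBTB33. All these values share the same arrays and 7 lines.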

How the data were processed

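The authors deposited 1 table of log2 values for 27306 probe sets on 28 arrays. Background correction, summarisation and normalization were not given in the sources used here; limma is named in the submitters' processing notes, with no version or role. The lowest value, 2.13, was shared by all arrays (1.05% to 2.53% of probe sets), and values there have no order. Line, treatment and replicate came from the labels, and gene names from the platform annotation, in which 1098 probe sets with several symbols stayed unnamed. The number of arrays limits the precision, and the p-values measure the spread between duplicates.

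All probe sets were fitted together with limma 3.58.1 (lmFit and eBayes, constant prior) in R 4.3.3, with 14 groups and no covariates (14 residual and 2.37 prior degrees of freedom). Contrasts were the change in each line, their mean and each line minus the mean of the other 6. F-tests covered differences between line changes and between DMSO levels, and DMSO levels were also compared in pairs of lines. The tests were two-sided, with Benjamini-Hochberg adjustment across the whole table. The fit was tested on simulated data. Alternatives are given in the closing section. Promoter windows were read from RefSeq tables with Python 3.11.15 and pandas 2.3.3. All 10 genes had a window, though the only one of DNMT3B and all those of UHRF1 and TET3 lie inside the gene. Members and lists were chosen with earlier results of these data known. All members were named, from most lists up to 4 called rises and 4 called falls with the largest average change, and 2 genes most like each member. The S-phase list was given by counts, with POLE named for its rise in GDM1. From the maturation list only S100A8 and CYBB were named. The lists were methylation partners and readers, demethylation and base excision repair, NuRD subunits and genes linked to S-adenosylmethionine. Further lists were S-phase genes, monocyte and granulocyte maturation genes and reference genes.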

Additional observations from a re-analysis of the deposited data

Results flagged for a closer look

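For 10 probe sets of 6 genes the change under GSK862 differed between the 7 lines by the moderated F-test, which 25.2% of all probe sets also passed. The adjusted p was 7.67e-05 for UHRF1, 0.000205 for DNMT3A (222640_at), 0.00507 for DNMT3B and 0.00972 for DNMT1. For HELLS it was 0.000408 (223556_at), 0.0104 (227350_at), 0.0244 (227349_at) and 0.0352 (220085_at). For ZBTB33 it was 0.00781 (226255_at) and 0.0331 (214631_at). DNMT3A rose in SKM1 and GDM1 and fell in MOLM13, THP1 and SKNO1, and DNMT3B rose in SKM1 and fell in GDM1. With 2 arrays a group, no group was tested for outlying arrays.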

How the results depend on the processing

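Over 38 called changes of the members and 1478 alternative values, 1345 kept call and direction, 132 lost the call and 1 turned, UHRF1 on average without GDM1 (0.0281). The number of genes called on average, 6, was 3 at an adjusted p under 0.01 and 1 with the lines as units. With the 4 arrays of a line fitted alone the counts were 3 in MOLM13 and 0 in SKM1, THP1 and SKNO1. At an adjusted p under 0.01 they were 3 in MOLM13 and 0 in THP1 and SKNO1, and with arrays centred on their medians 0 in SKNO1. NOMO1 had 1 call with 1 probe set per gene, array weights, median centring, a trend in eBayes or a filter on low signal. Differences between lines were called for 1 gene without GDM1. Apart from the lines as units, the share of all genes called under these alternatives was not counted. Leaving out single arrays gave 6 to 7 genes on average, 5 to 7 in GDM1, 2 to 5 in MOLM13, 2 to 3 in SKM1, 0 to 1 in THP1 and in SKNO1, 0 to 2 in NOMO1, 0 to 0 in SHI1, 6 to 8 for differences between lines and 10 to 10 for the DMSO level. Of the calls in a line, those of DNMT1, UHRF1, DNMT3B and HELLS (4 probe sets) in GDM1, MBD3 on 41160_at in GDM1, ZBTB33 (2 probe sets) and TET2 in MOLM13 and DNMT3A in SKM1 were kept under each such omission. Quantile normalization ended the calls of MBD3 on 41160_at in MOLM13 and of DNMT1 on average. The fit of 4 lines for DNMT3A (adjusted p = 0.035) was chosen after seeing the data. Replicate numbers were shared by the groups. Deviations of arrays with the same number correlated at -0.117 to 0.314, highest in SKNO1 (0.314), SKM1 (0.307) and NOMO1 (0.287). Whether arrays of the same number were paired within a line is thus not settled. With the number as 1 replicate block common to all lines, 6 genes were called on average and 7 in GDM1. The dim probe sets of DNMT3A and TET2 were called in no line and those of MBD3 and ZBTB33 in 1 each, and how far low signal limits a call was not tested. The cause of these shifts was not tested.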
